A study of Homo sapiens with 12 samples.

Results

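The response of L-540 cells to givinostat alone was described from 6 Illumina bead arrays, 3 of cells given 100 nM givinostat for 24 hours and 3 of control cells. L-540 is an established line of Hodgkin lymphoma cells grown in suspension, so every value below comes from 1 line in culture. The 6 arrays belong to a study of 12, which also has 3 arrays of cells given givinostat together with 5 µM sorafenib (called the combination) and 3 of cells given sorafenib alone. The labels do not say whether the control cells received a vehicle, and they letter the arrays of each group A, B and C without naming separate cultures. The p-values thus rest only on how far the lettered samples of a group, or the differences between groups within letters, vary. That spread may be technical. Genes entered if either group had a probe called present (detection p under 0.05) on each of its 3 arrays. That rule gave 7779 named genes, out of 8079 when all 4 groups of the study were considered.

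Givinostat is an inhibitor of histone deacetylases (HDACs), the enzymes that take acetyl groups off the lysines of histones and of many other proteins. Blocking them raises histone acetylation, and inhibitors of this kind are known to raise some transcripts and lower others, genes driven by NF-kB and STAT factors among them. Hodgkin cells are known for constant NF-kB and JAK-STAT signalling and for making cytokines and chemokines that draw other cells to the tumour.

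The levels given here are log2 normalized intensities, on which a difference of 1 is a doubling, and they compare a gene between arrays but not with another gene. Before normalization the median raw intensity of the 6 arrays lay between 418.1 and 579.3, and 24.7% to 30.6% of the probes were detected on each. The letter mattered beyond the treatment: over all genes, the givinostat and control arrays of the same letter deviated from their group means together, with correlations across genes of 0.299 to 0.373. The letter was therefore also fitted as a block, on the 9 arrays without the combination, whose arrays did not follow the letters in the same way (-0.109 to 0.364). The array labelled combination B stood apart, with a raw median of 681.1 and 22.4% of probes detected. Of the markers of a Hodgkin line, TNFRSF8 (CD30), FUT4 (CD15), IRF5, FSCN1, TRAF1 and GATA3 were detected on all 3 control arrays and IRF4 on 2, while CCL17 and CCL22 were not detected on any control array. No epithelial marker of 7 was detected on any of the 6 arrays. KRT7 and KRT20, keratins outside those 7, were detected on all 3 arrays of at least 1 of the groups. Of 7 B cell markers BLK was detected on all 6, MS4A1 and CD79A on 1 control array each and CD79B, CD22, PAX5 and FCRLA on none. CSF1R, a macrophage receptor, COL6A3, a fibroblast collagen, and the T cell markers CD2 and CD4 were detected on all 6. Among the other T cell markers, CD3D, CD3G, CD5 and CD8A were on none, and CD3E and CD7 on 1 control array each. Of the other macrophage markers, LYZ, FCGR1A, S100A9, AIF1 and TYROBP were on none, and CD14, CD68, FCGR3A, CD163 and S100A8 on some. Of the other fibroblast markers, COL1A2, LUM and PDGFRB were on none, and COL1A1, COL3A1 and DCN on at most 1 array a group. Of 7 endothelial markers, PECAM1 was on 1 givinostat and 2 control arrays, TEK on 2 control arrays and the others on none.

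In the fit of all 12 arrays without the block, 13 genes were higher and 3 lower with givinostat than in control at an adjusted p under 0.05, 0.167% and 0.0386% of the genes tested. With the letter as block, 105 were higher and 67 lower, 1.35% and 0.861% of the genes tested, and all 16 genes of the first fit were among these 172. Of the 172 genes, 54 differed at least 2-fold, 35 of them higher and 19 lower. Each of the 172 differed in the same direction within all 3 letters, which the blocked fit favours, against 44.0% of all genes. For 95 of the 105 higher genes the 3 givinostat values lay above the 3 control values, and for 48 of the 67 lower genes they lay below, while over all genes tested 10.8% lay wholly above and 9.23% wholly below. These genes were chosen by p-values from the same values, so the choice also favours this separation. The median difference over all genes was 0.00, which the quantile normalization largely sets. It was 0.09 when each array was scaled to its median instead. In what follows, a gene is said to have risen or fallen when it passed with the letter as block, and genes that passed without the block too are named as such. The gene lists used below were chosen with earlier results of these data known. A list's share of passing genes, set against the 1.35% and 0.861% above, is thus a description and not a test. Fitting the block on all 12 arrays kept 89 of the 105 and 47 of the 67 past the threshold, and for named genes that it did not keep, its adjusted p is given.

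**Figure D1:**
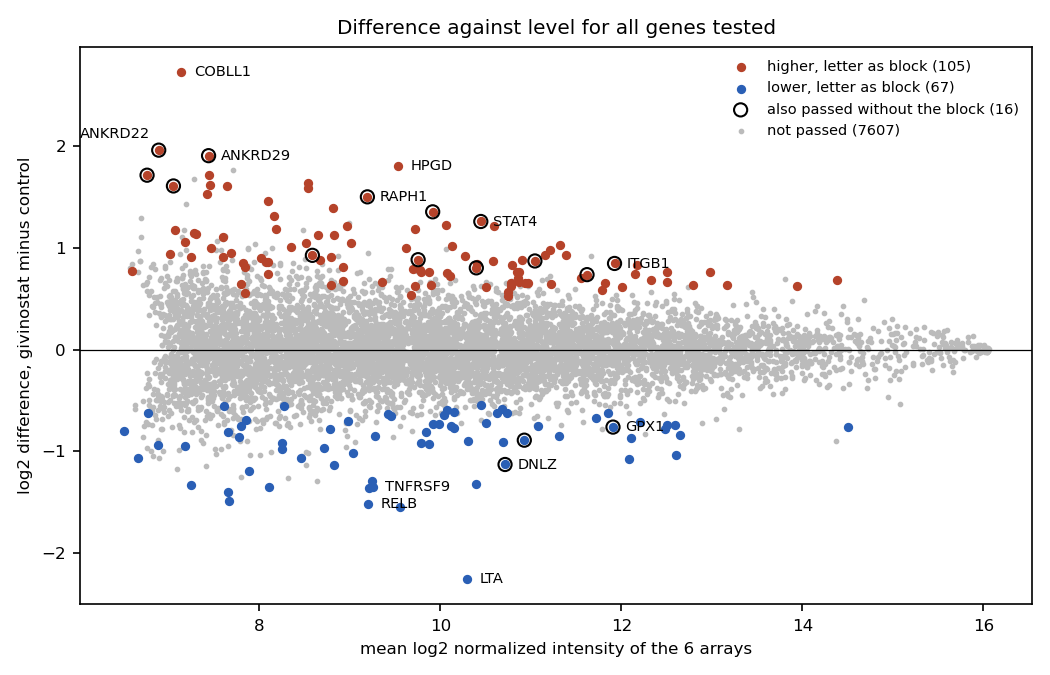
Log2 difference, givinostat minus control, of each of the 7779 genes (vertical axis) against its mean log2 normalized intensity on the 6 arrays (horizontal axis). Red points rose and blue points fell with the letter as block (105 and 67 genes), and circles mark the 16 genes that also passed without it. COBLL1, which was undetected on the control arrays, lies at 2.72, and LTA, detected on all 6 arrays, lies at -2.25.

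The number of genes that passed depended on single arrays. Without the block it was 3, 1 and 1 when control A, B or C was left out, and 23, 0 and 0 when givinostat A, B or C was left out. It was 12, 3 and 1 without sorafenib A, B or C, and 6, 3 and 1 without combination A, B or C. With the block it was 28, 0 and 5 without control A, B or C, 31, 0 and 2 without givinostat A, B or C, and 158, 51 and 83 without sorafenib A, B or C. When the block was fitted on the 6 arrays alone no gene passed, with 1588 genes at an unadjusted p under 0.05. Scaling each array to its median in place of quantile normalization gave 84 higher and 16 lower with the block, in place of 105 and 67.

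Of the integrin and adhesion genes 3 rose, and of the actin and motility genes 1. ITGB1, the beta 1 subunit shared by many integrins, stood at 12.21, 12.39 and 12.43 on givinostat arrays A, B and C, against 11.39, 11.62 and 11.50 on the control arrays. The groups did not overlap, and the difference was 0.85 ± 0.13 (SE, n = 3 each). This SE, like every one below, is from the unblocked fit, whose spread is shared by all 4 groups. The difference passed without the block (adjusted p = 0.0413) and with it (0.0168). ITGA4, the alpha 4 subunit that pairs with beta 1, stood at 10.21, 11.14 and 10.66 with givinostat, against 8.86, 9.81 and 9.68 in control, so every givinostat value was above every control value and array A was the lowest of each group. Its difference of 1.22 ± 0.32 passed with the block (adjusted p = 0.016) but not without it (0.157). CD47, a surface protein that binds integrins and signals to phagocytes, differed by 0.76 ± 0.15 and also rose (adjusted p = 0.041 with the block). Those 3 were the only genes to pass among the 19 tested of the integrin and adhesion list (15.8%, against 1.35% of all genes that rose), and none of the list fell. ITGB7, the other partner of alpha 4, differed by 0.47 ± 0.12 and did not pass (adjusted p = 0.0807 with the block). The list's median was -0.01, near that of all genes, and turned to 0.15 when a gene's probes were summarised by their median.

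RAPH1, lamellipodin, which recruits actin-elongating proteins to the leading edge of cells, stood at 9.75, 10.12 and 9.96 with givinostat, against 8.16, 8.76 and 8.40 in control. All 3 givinostat values lay 0.99 or more above the highest control value, and the difference of 1.50 ± 0.22 passed without the block (adjusted p = 0.0413) and with it (0.013). SKAP2, an adaptor that links integrin signals to actin, differed by 0.88 ± 0.14 and passed in both fits (adjusted p = 0.0465 without the block). SKAP2 belongs to neither list. RAPH1 was the only 1 of 42 tested genes of the actin and motility list to pass, a share of 2.38%, near the background, while 28 of the 42 differences were above 0 and the median was 0.11. COBLL1, a relative of the actin nucleator COBL and also in neither list, rose. It stood at 7.29, 9.16 and 9.04 with givinostat, where it was detected on all 3 arrays, against 5.77, 5.81 and 5.74 in control, where it was detected on none. The measured difference was 2.72 ± 0.52 (adjusted p = 0.0197 with the block, 0.064 without), and with the control values set at the detection limit the gene was at least 3.26-fold higher. Array A gave the lowest of the 3 givinostat values by 1.75.

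**Figure D2:**
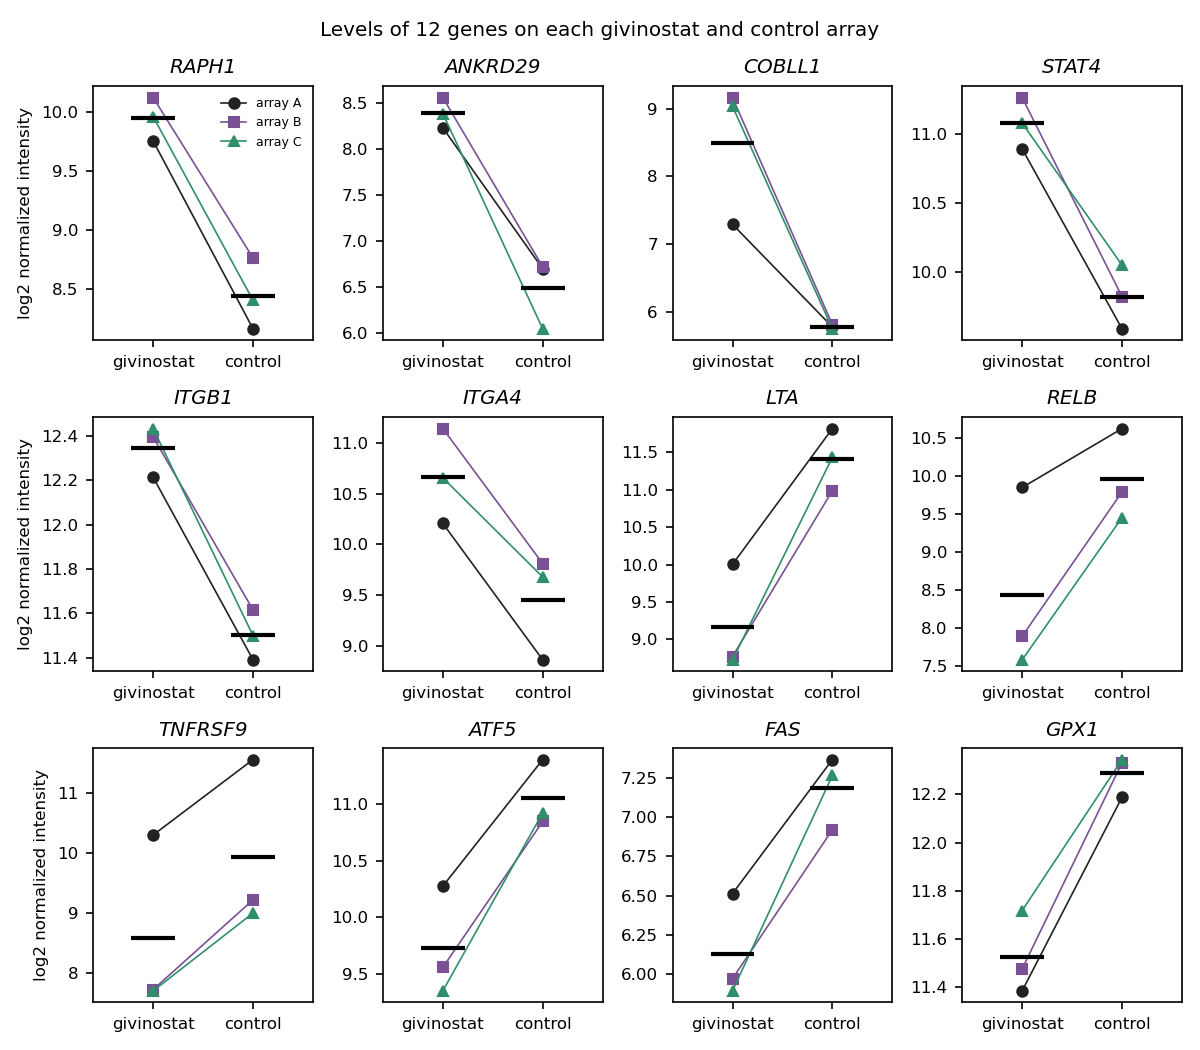
Log2 normalized intensity (vertical axes, scaled to each gene) of 12 genes on the 3 givinostat arrays (left) and the 3 control arrays (right), with a symbol for each letter, lines joining arrays of the same letter and black bars at the group means. Every line of RAPH1, ANKRD29, COBLL1, STAT4, ITGB1 and ITGA4 runs down to control, and every line of LTA, RELB, TNFRSF9, ATF5, FAS and GPX1 runs up, while array A of RELB and TNFRSF9 lies far above arrays B and C in both groups.

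Among cytokine receptors and their signalling genes, rises and falls were mixed. STAT4, the transcription factor through which interleukin 12 acts in lymphocytes, stood at 10.89, 11.26 and 11.08 with givinostat, against 9.59, 9.82 and 10.05 in control. These groups were well apart, and the difference of 1.26 ± 0.17 passed without the block (adjusted p = 0.0411) and with it (0.013). STAT5A, a STAT factor activated by many growth-promoting cytokines, went the other way, at 12.18, 11.59 and 11.26 with givinostat against 12.997, 12.33 and 12.30 in control. Its difference of -0.87 ± 0.36 passed with the block (adjusted p = 0.0253) and not without it (0.327). Its near-identical relative STAT5B differed by -0.16 ± 0.23 and did not pass. Of the 13 tested genes of the list of JAK kinases and STAT factors, STAT4 and STAT5A passed, 1 in each direction, and the median was 0.00. That was 7.69% each way, while 1.35% of all genes rose and 0.861% fell. JAK1 differed by 0.25 and STAT3 by -0.41, and neither passed.

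IL18RAP, the accessory chain of the interleukin 18 receptor, was detected on all 3 givinostat arrays, at 7.65, 7.92 and 7.28, and on none of the control arrays, at 6.49, 5.56 and 5.65. It was at least 1.77-fold higher and passed in both fits (adjusted p = 0.0473 without the block). IL27RA, a receptor for interleukin 27, fell by 0.75 ± 0.28 on the log2 scale (adjusted p = 0.0372 with the block). The remaining 21 of the 23 tested receptors for cytokines and chemokines did not pass, and the list's median was -0.06. Thus 4.35% passed each way, while 1.35% of all genes rose and 0.861% fell. GFI1, a transcriptional repressor of lymphoid and myeloid cells, was the only 1 of 22 tested JAK-STAT targets to pass, at 10.03, 10.65 and 10.66 with givinostat against 9.33, 9.93 and 9.82 in control (difference 0.76 ± 0.22, adjusted p = 0.0373 with the block). This 1 gene made up 4.55% of the list, against 1.35% of all genes that rose. The median of that list was -0.21, with 13 of the 22 below 0, and was -0.06 without the control A array and -0.36 without control B.

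Genes of the NF-kB pathway and the cytokines it drives held several of the falls. LTA, lymphotoxin alpha, a cytokine of the tumour necrosis factor family, had the largest fall of any gene that passed. It stood at 10.00, 8.77 and 8.72 with givinostat, against 11.82, 10.99 and 11.44 in control. All 3 givinostat values were below all 3 control values, and the difference was -2.25 ± 0.42, a 4.76-fold lower level (adjusted p = 0.013 with the block, 0.0625 without). CCL5, a chemokine that attracts T cells, fell to 12.50, 11.68 and 12.09 with givinostat, against 13.13, 12.71 and 12.76 in control, a difference of -0.78 ± 0.27 (adjusted p = 0.0351 with the block). EBI3, a subunit of the interleukins 27 and 35, differed by -0.72 ± 0.57 and passed only with the block on 9 arrays (adjusted p = 0.0433, against 0.171 on 12). Those 3 were the genes that passed among 11 tested NF-kB targets (27.3%, against 0.861% of all genes that fell). None of the 11 rose, the difference was below 0 for all 11, and the median was -0.32. Array A was the highest of both groups for 8 of the 11, against 17.9% of all genes, and in combination against sorafenib 7 of the 11 were below 0, against 52.7% of all genes.

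RELB, the subunit of the alternative NF-kB pathway, stood at 9.85, 7.89 and 7.58 with givinostat, against 10.62, 9.79 and 9.45 in control. TNFAIP3 (A20), an inhibitor of NF-kB that NF-kB itself induces, stood at 11.29, 9.55 and 9.88 with givinostat, against 12.003, 10.75 and 10.70 in control. For both genes array A was far above B and C in each group, so the groups overlapped, while within each letter the givinostat value was the lower. The differences were -1.52 ± 0.93 for RELB and -0.91 ± 0.66 for TNFAIP3, and both passed with the block (adjusted p = 0.0248 and 0.0236) but not without it (0.519 and 0.601). With the block on 12 arrays TNFAIP3 passed (adjusted p = 0.0283) and RELB did not (0.174). Of 18 tested subunits and inhibitors these 2 fell (11.1%, against 0.861% of all genes) and none rose. The median was -0.24, with 11 of the 18 below 0. Chosen after their values were seen, NFKB2, the partner of RELB, differed by -1.29, TRAF1 by -1.14 and NFKBIA, the main inhibitor, by -0.90, each lower within all 3 letters, and none of them passed (adjusted p = 0.0811, 0.0963 and 0.0666 with the block). RELA, the main activating subunit, differed by 0.11 and did not pass.

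**Figure D3:**
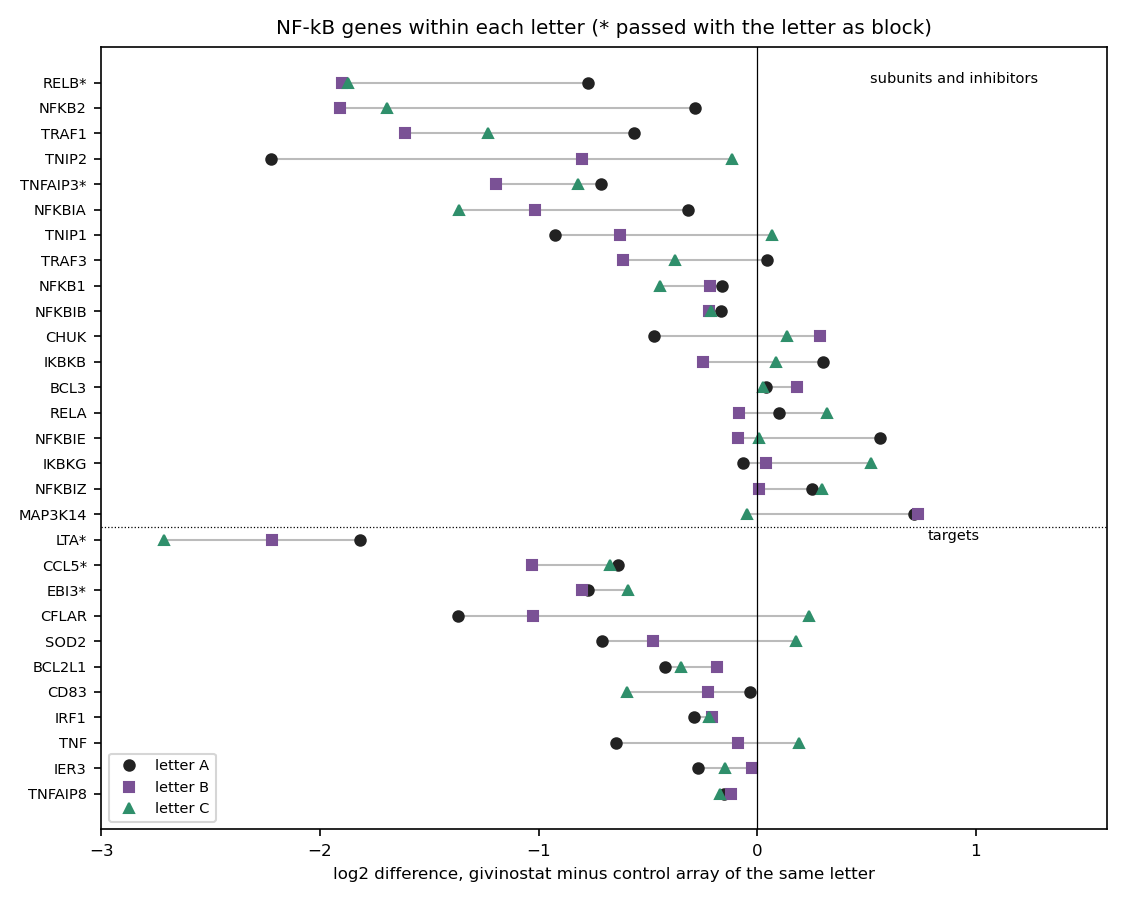
Log2 difference between the givinostat and the control array of the same letter (horizontal axis) for the 18 tested NF-kB subunits and inhibitors and the 11 tested targets, 1 row a gene, with a symbol for each letter, a grey line over their range and an asterisk where the gene passed with the letter as block. RELB, NFKB2, TRAF1, TNFAIP3, NFKBIA and LTA lie left of 0 in all 3 letters.

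The weight of array A applied to the lower genes more widely. Array A was the highest of the 3 in both groups for 42 of the 67 genes that fell (62.7%), for 10 of the 105 that rose (9.52%) and for 17.9% of all genes tested. The part of this letter pattern in the lower calls was not tested. Without the givinostat A array the unblocked difference was -1.43 for TNFAIP3, -1.11 for EBI3 and -2.21 for TNFRSF9. Without the control A array it was -0.48 for TNFAIP3, -0.31 for EBI3, -0.53 for TNFRSF9, -0.45 for IL32 and -0.46 for ISG20. The sign was the same for these genes whichever array was left out.

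Promoters of 3 genes that fell are shown for the NF-kB motif they hold. In the RefSeq table of 35116 promoters (GRCh38.p14), 5.21% held the NF-kB consensus motif on either strand within the 250 bases before the start. Among the genes tested, 6467 of 7779 had a promoter there and 5.85% of their 9363 promoters held the motif. It was in 9 of 72 promoters of the genes that fell (12.5%) and in 2 of 144 promoters of the genes that rose (1.39%). The 9 promoters belonged to FAS, IL27RA, IL32, LTA, PPP2R5B, STAT5A, TNFAIP3, TNFRSF14 and TNFRSF9, and the 2 to CYP2R1 and MAST4. A match is a description of the letters and not a measured binding site. The windows of LTA (chr6:31572039-31572288, plus strand, the 1 of its 2 starts that holds a match), TNFAIP3 (chr6:137867009-137867258, plus strand) and TNFRSF9 (chr1:7940840-7941089, minus strand) follow, with that of ITGA4 (chr2:181457136-181457385, plus strand), which rose and holds no match. They run 5′ to 3′ and matches are in capitals. TNFAIP3 has 2 matches on the minus strand, and the 2 of TNFRSF9 overlap on opposite strands.
LTA: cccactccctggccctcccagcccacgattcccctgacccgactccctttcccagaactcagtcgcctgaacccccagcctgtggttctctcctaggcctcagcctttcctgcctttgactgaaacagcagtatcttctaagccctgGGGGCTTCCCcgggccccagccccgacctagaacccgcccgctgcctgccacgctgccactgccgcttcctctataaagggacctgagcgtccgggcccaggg
TNFAIP3: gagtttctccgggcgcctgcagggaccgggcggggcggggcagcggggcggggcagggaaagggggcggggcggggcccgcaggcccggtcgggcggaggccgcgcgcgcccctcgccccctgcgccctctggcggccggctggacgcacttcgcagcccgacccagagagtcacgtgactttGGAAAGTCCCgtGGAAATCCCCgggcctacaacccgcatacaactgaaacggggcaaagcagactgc
TNFRSF9: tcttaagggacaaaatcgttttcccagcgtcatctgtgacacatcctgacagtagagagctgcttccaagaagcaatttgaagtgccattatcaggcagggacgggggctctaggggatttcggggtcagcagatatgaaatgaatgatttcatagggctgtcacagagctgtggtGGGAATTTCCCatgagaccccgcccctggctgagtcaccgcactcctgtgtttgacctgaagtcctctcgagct
ITGA4: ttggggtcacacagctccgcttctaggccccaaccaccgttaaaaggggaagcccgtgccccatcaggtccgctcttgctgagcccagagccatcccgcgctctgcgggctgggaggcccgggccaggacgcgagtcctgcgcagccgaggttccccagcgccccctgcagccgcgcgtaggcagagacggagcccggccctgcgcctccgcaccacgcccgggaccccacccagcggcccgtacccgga

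The cytokines and chemokines made by these cells that passed were all lower. LTA, IL32, CCL5 and CXCL16 fell, 4 of the 15 tested (26.7%, against 0.861% of all genes), and none rose. LTA and CCL5 are also counted among the NF-kB targets above. IL32, an inflammatory cytokine, stood at 9.70, 9.19 and 9.42 with givinostat, against 10.95, 9.68 and 10.11 in control (difference -0.81 ± 0.40, adjusted p = 0.0499 with the block on 9 arrays and 0.0855 on 12). CXCL16, a chemokine that is also made as a membrane protein, stood at 10.72, 10.02 and 10.22 with givinostat, against 11.32, 10.58 and 10.91 in control (difference -0.62 ± 0.30, adjusted p = 0.0345 with the block). Both pairs of groups overlapped, and both genes were lower within each letter. The list's median was -0.18, with 10 of the 15 differences below 0 and 5 above. Interferon-stimulated genes gave 2 falls and no rise among 27 tested (7.41% fell, against 0.861% of all genes). Of their differences 21 were below 0, and the median was -0.22. IRF7, the transcription factor that drives interferon alpha genes, fell to 11.05, 10.36 and 10.71 with givinostat, against 11.86, 11.24 and 11.28 in control (difference -0.75 ± 0.26, adjusted p = 0.0345 with the block). ISG20, an exonuclease with antiviral activity, differed by -0.74 ± 0.29 (adjusted p = 0.0466 with the block).

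Surface receptors of the tumour necrosis factor receptor family moved in both directions. TNFRSF9 (CD137), a costimulatory receptor, stood at 10.30, 7.73 and 7.70 with givinostat, against 11.55, 9.22 and 8.999 in control. The spread between letters exceeded the difference between groups, which was -1.35 ± 1.00 and passed with the block alone (adjusted p = 0.0389, against 0.0631 with the block on 12 arrays and 0.613 without). TNFRSF14 (HVEM), the receptor for LIGHT and for BTLA, stood at 11.98, 11.15 and 11.52 with givinostat, against 12.79, 12.58 and 12.49 in control, so the groups did not overlap (difference -1.07 ± 0.21, adjusted p = 0.0251 with the block). FAS, the death receptor, was detected on none of the givinostat arrays, at 6.51, 5.97 and 5.89, and on all 3 control arrays, at 7.37, 6.92 and 7.27. It was at least 1.28-fold lower and fell with the block (adjusted p = 0.0168, against 0.0741 without). TNFRSF21 (death receptor 6) rose, at 9.17, 9.53 and 9.30 with givinostat against 7.06, 8.37 and 7.80 in control (difference 1.59 ± 0.31, adjusted p = 0.0168 with the block, 0.0669 without). FAS and TNFRSF21 were the 2 genes to pass among 25 tested death receptors, caspases and necroptosis genes, whose median was -0.08. That was 4% each way, while 1.35% of all genes rose and 0.861% fell.

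CD30 itself, TNFRSF8, stood at 9.93, 9.75 and 9.60 with givinostat, against 10.27, 9.73 and 10.05 in control. The groups overlapped, and the difference of -0.26 ± 0.20 did not pass in either fit (adjusted p = 0.621 without the block, 0.28 with it). TNFRSF9 was the only 1 of the 15 tested Hodgkin surface and regulatory markers to pass (6.67%, against 0.861% of all genes that fell). The list's median was -0.21, with 8 of the 15 below 0. That median was -0.04 without the control A array and -0.31 without givinostat A. GATA3, a T cell transcription factor that Hodgkin cells also make, differed by 0.08 ± 0.14 and did not pass. STAT4 was the only lymphoid transcription factor of 21 tested to pass (4.76%, against 1.35% of all genes that rose). No gene passed among the 12 tested of the T cell receptor and costimulation list.

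The targets of the drug and genes often cited for this drug class were examined next. Of 10 tested HDACs and sirtuins none passed, and the median was -0.00. HDAC1 stood at 13.96, 14.08 and 14.14 with givinostat, against 13.78, 14.10 and 13.996 in control, and HDAC2 at 8.99, 9.96 and 9.41 against 9.38, 9.76 and 9.27. Both overlapped between the groups. HDAC3 differed by 0.40 ± 0.16 (unadjusted p = 0.0351, adjusted p = 0.326 without the block and 0.114 with it) and HDAC6 by -0.13 ± 0.16. No gene passed among 18 subunits of HDAC complexes or 12 acetyltransferases and bromodomain readers, where KDM1A (0.35) and NCOA1 (-0.42) had the smallest unadjusted p. CDKN1A, the cell cycle inhibitor p21 that HDAC inhibitors raise in many lines, stood at 14.09, 13.45 and 13.43 with givinostat, against 13.95, 13.45 and 13.42 in control. Its difference was 0.05 ± 0.20, with a 95% interval of -0.39 to 0.50. A dimmer probe of the gene differed by 0.74 ± 0.49, with an unadjusted p of 0.158 without the block and 0.000254 with it, so the 2 CDKN1A probes disagree in size. TXNIP, another gene often raised by this class, was below the detection limit on all 6 arrays.

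Of 15 tested genes that textbooks give as markers of HDAC inhibition, 1 passed (6.67%, against 1.35% of all genes that rose). GLRX, glutaredoxin, which reduces mixed disulfides with glutathione, stood at 7.79, 8.004 and 7.74 with givinostat, against 7.01, 6.69 and 6.40 in control, where it was detected on 2 of the 3 arrays. The groups did not overlap, and the difference of 1.15 ± 0.33 passed with the block (adjusted p = 0.0234, against 0.0842 with the block on 12 arrays and 0.183 without). Among histone genes, which have widely shared sequences, none passed: 19 replication-dependent genes had a median of 0.17 with 12 above 0, and 10 replication-independent genes a median of 0.05. H2BC5 had the smallest unadjusted p of the first set, with a difference of 0.47 ± 0.19. MACROH2A2 had that of the second, at -0.43 ± 0.14. Cancer-testis antigens, silenced in most tissues, were almost all below detection, and PRAME, the only 1 of 31 on the array that was tested, differed by -0.53 ± 0.33 without passing.

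Genes outside these groups gave several of the largest rises. ANKRD29, an ankyrin repeat protein, had the smallest adjusted p without the block, 0.0115. It stood at 8.23, 8.56 and 8.38 with givinostat, against 6.70, 6.72 and 6.04 in control, where it was detected on 1 array of 3. The difference was 1.90 ± 0.21, and the groups were 1.51 apart at their nearest. ANKRD22, another ankyrin repeat protein, was detected on all 3 givinostat arrays, at 7.43, 8.26 and 7.91, and on none of the control arrays, at 5.80, 6.25 and 5.67. It was at least 2.11-fold higher and had the smallest adjusted p with the block, 0.00844. SAMSN1, an adaptor that restrains B cell activation, was likewise detected in the givinostat group alone, at 7.52, 8.10 and 7.94 against 6.36, 6.37 and 6.00 in control, and was at least 2.09-fold higher (adjusted p = 0.0473 without the block). ELAPOR2, a membrane protein of the endosomes and lysosomes, differed by 1.35 ± 0.21 (adjusted p = 0.0466 without the block). EFR3B, which anchors a phosphatidylinositol kinase at the plasma membrane, differed by 0.87 ± 0.15 (0.0473), and both passed with the block too.

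Further rises passed with the block alone. HPGD, the enzyme that inactivates prostaglandins, stood at 9.66, 10.93 and 10.71 with givinostat, against 8.19, 8.79 and 8.90 in control (difference 1.81 ± 0.35, adjusted p = 0.013). ETV5, an ETS transcription factor downstream of ERK, stood at 7.92, 8.65 and 8.77 with givinostat, against 6.78, 7.13 and 6.60 in control, where it was detected on 1 array (difference 1.61 ± 0.29, adjusted p = 0.0213). HBD, the delta globin gene, whose sequence is close to that of beta globin, was detected on 1 control array and was at least 2.75-fold higher (adjusted p = 0.0168). These genes had arrays B and C above A in the givinostat group. PIK3CG, the gamma catalytic subunit of phosphoinositide 3-kinase in leukocytes, was detected on 1 control array and was at least 2.30-fold higher. COXFA4L3, a relative of a subunit of respiratory complex IV, differed by 1.63 ± 0.28. ATP9A, a lipid flippase of the endosome, differed by 1.46 ± 0.40, MAST4, a microtubule-associated kinase, by 1.39 ± 0.41. LOC101927822, an uncharacterised locus detected on 1 control array, was at least 2.35-fold higher.

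Many of the higher genes were dim in control. Of the 105 that rose, 22 (20.95%) were not detected on all 3 control arrays and 5 were detected on none, against 375 of all 7779 genes (4.82%) not detected on all 3. Of the 67 that fell, 11 (16.4%) were not detected on all 3 givinostat arrays and 4 on none, against 326 of all genes (4.19%). A gene absent from 1 group enters only by being detected in the other, so these shares are in part set by the rule of inclusion. Without background correction such dim genes showed smaller differences: in the authors' deposited quantile-normalized values ANKRD22 differed by 0.57, ANKRD29 by 0.58, SAMSN1 by 0.45, IL18RAP by 0.51 and COBLL1 by 0.91. For ANKRD22, SAMSN1, IL18RAP and COBLL1 these lie under the folds given as "at least", which hold for the background-corrected values alone. Where a gene that passed had another probe on the array that was detected by the same rule, 27 of 29 such probes moved in the same direction, 22 of them with an unadjusted p under 0.05 with the block.

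Only 3 genes were lower in both fits. DNLZ, which keeps the mitochondrial chaperone HSPA9 soluble, stood at 10.10, 9.96 and 10.39 with givinostat, against 11.08, 11.37 and 11.39 in control (difference -1.13 ± 0.17, adjusted p = 0.0413 without the block). PARP3, an ADP-ribosyltransferase that acts at DNA breaks, stood at 10.64, 10.23 and 10.58 with givinostat, against 11.46, 11.40 and 11.25 in control (difference -0.89 ± 0.15, adjusted p = 0.0473 without the block). GPX1, the glutathione peroxidase of the cytosol, stood at 11.38, 11.48 and 11.72 with givinostat, against 12.19, 12.33 and 12.34 in control (difference -0.76 ± 0.12, adjusted p = 0.0473 without the block). The nearest values of the groups were 0.69 apart for DNLZ, 0.61 for PARP3 and 0.47 for GPX1. Array A was the highest of both groups for PARP3, as for 42 of the 67 genes that fell with the block, and of neither group for DNLZ and GPX1.

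Among falls that passed with the block alone, PRKCH, the eta isoform of protein kinase C, stood at 7.73, 7.61 and 6.95 with givinostat, against 8.97, 8.76 and 8.62 in control (difference -1.35 ± 0.26, adjusted p = 0.023). FOSL1, the AP-1 subunit Fra-1, was detected on 1 givinostat array and all 3 control arrays, at 7.06, 6.07 and 6.61 against 8.17, 8.14 and 7.43 (difference -1.33 ± 0.30, adjusted p = 0.0364). ADAP1, a GTPase-activating protein for Arf6, differed by -1.13 ± 0.20 and PPP2R5B, a regulatory subunit of protein phosphatase 2A, by -0.96 ± 0.18. S100P, a calcium-binding protein, differed by -1.40 ± 0.33, SERPINB8, a serine protease inhibitor, by -1.29 ± 0.35, and JMY, a p53 cofactor that also nucleates actin, by -1.20 ± 0.48 (adjusted p = 0.0516 with the block on 12 arrays). The remaining genes of this kind were LRRC23 (-1.48 ± 0.33), PAQR7, a membrane progestin receptor (-1.06 ± 0.28, adjusted p = 0.0874 with the block on 12 arrays), and CGB5, a chorionic gonadotropin beta gene with near-identical copies that the probe may also measure (-1.01 ± 0.24).

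Genes of stress and growth programmes passed in small numbers, with 2 falls in each of the ATF4 list (6.06%) and the hypoxia and glycolysis list (7.14%), against 0.861% of all genes that fell. ATF5, a transcription factor induced by amino acid and protein stress, stood at 10.28, 9.56 and 9.35 with givinostat, against 11.39, 10.85 and 10.92 in control, and fell (difference -1.32 ± 0.34, adjusted p = 0.013 with the block, 0.141 without). DDIT4 (REDD1), an inhibitor of mTORC1 induced by stress and hypoxia, stood at 13.03, 11.44 and 11.78 with givinostat, against 13.80, 12.59 and 12.97 in control. Its groups overlapped, and the difference of -1.04 ± 0.50 passed with the block (adjusted p = 0.0168) and not without it (0.399). These were the 2 genes to pass of 33 tested in the ATF4 stress list, which had 27 differences below 0 and a median of -0.21. Array A was the highest of both groups for 26 of the 33, and the list's median was -0.40 without the givinostat A array and -0.05 without the control A array. ENO2, a glycolytic enolase best known from neurons, fell by 0.67 ± 0.29 on the log2 scale (adjusted p = 0.0395 with the block), and with DDIT4 made up the 2 of 28 tested hypoxia and glycolysis genes that passed (median -0.09).

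SYVN1 (HRD1), the ubiquitin ligase of ER-associated degradation, stood at 8.999, 9.35 and 8.79 with givinostat, against 8.05, 8.34 and 7.98 in control. It passed in both fits (difference 0.93 ± 0.16, adjusted p = 0.0473 without the block) and was the only 1 of 21 tested ER chaperone and unfolded protein response genes to do so. With the block it made up 4.76% of the list, against 1.35% of all genes that rose. The median of that list was 0.18, with 15 of 21 above 0. Among cytosolic heat shock chaperones none of 24 passed, the nearest being BAG3 at 0.53 ± 0.17. No gene passed among 59 respiratory chain subunits (median -0.06), 36 genes of ribosome biogenesis and MYC targets (median -0.19, with 27 below 0) or 25 of sterol and fatty acid synthesis (median 0.04). MYC itself differed by 0.17 ± 0.14 without passing. PSME4, a proteasome activator, was the only 1 of 33 proteasome genes to pass, at 0.66 ± 0.25, and FUCA1, a lysosomal fucosidase, the only 1 of 41 autophagy and lysosome genes, at 1.22 ± 0.39. These shares of 3.03% and 2.44%, against 1.35% of all genes that rose, each rest on 1 gene.

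**Figure D4:**
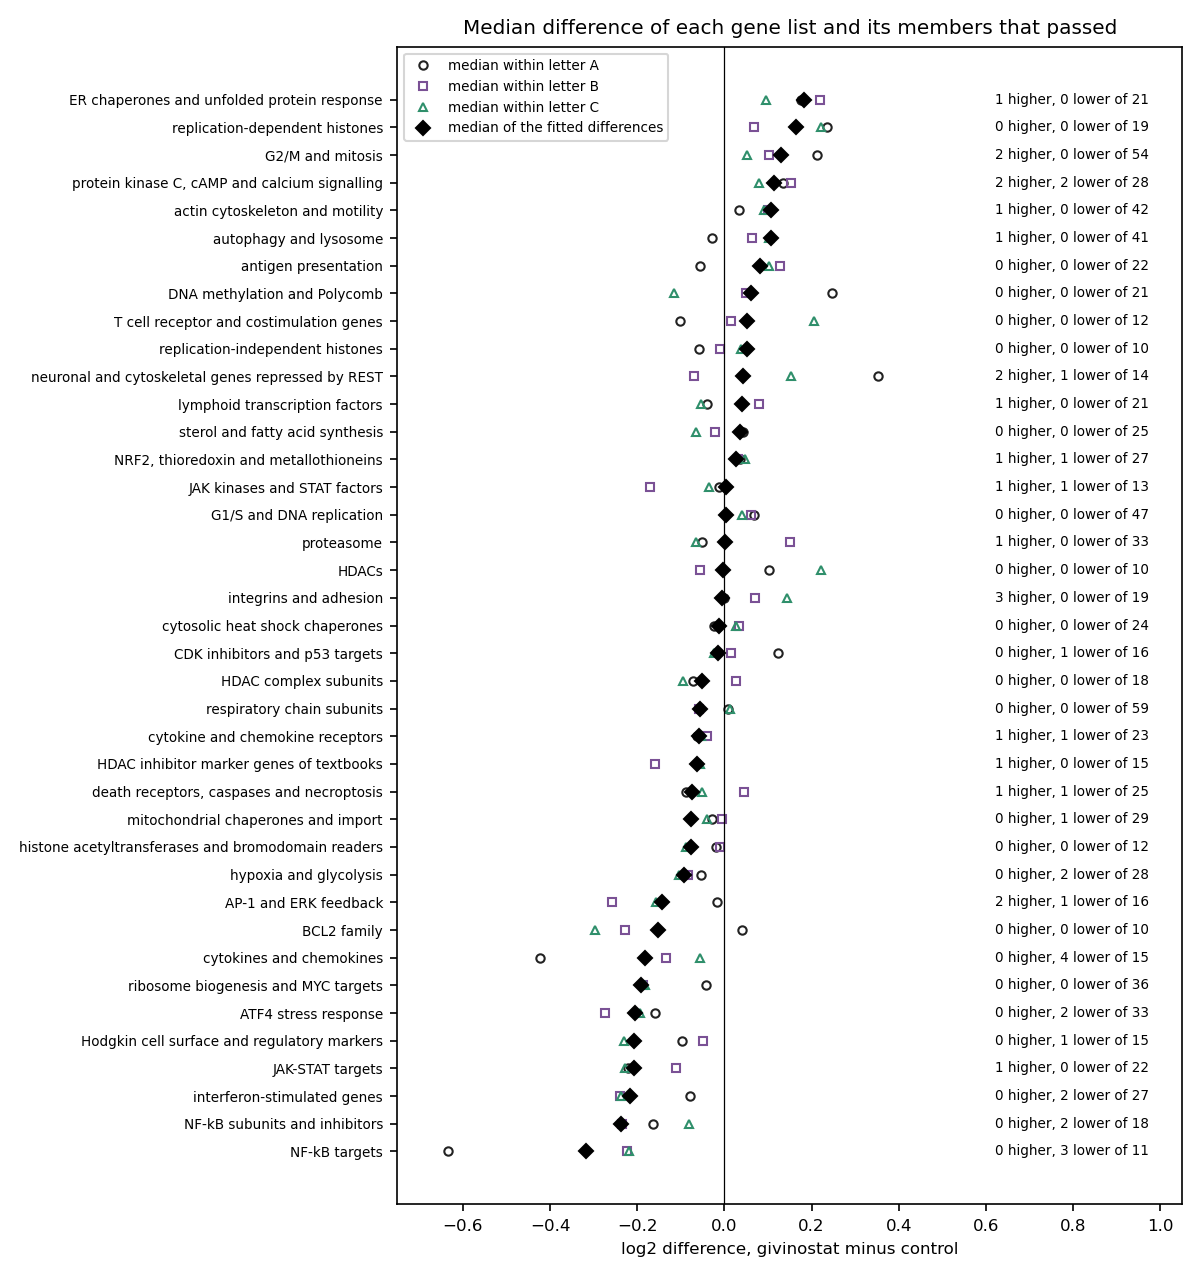
Median log2 difference, givinostat minus control (horizontal axis, black diamonds), of each list with 10 or more tested genes, ordered from high to low, with the medians within letters A, B and C as open symbols and, at the right, how many members rose and fell with the letter as block. Medians near 0 change sign with the scaling, since scaling each array to its median moves the median of all genes to 0.09. All medians lie between -0.32, for NF-kB targets, and 0.18, for ER chaperones and the unfolded protein response.

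Among cell cycle genes, 2 of mitosis passed. SMC4, a condensin subunit, stood at 11.22, 11.57 and 10.96 with givinostat, against 10.76, 10.54 and 10.16 in control (difference 0.76 ± 0.24, adjusted p = 0.0416 with the block on 9 arrays and 0.0888 on 12). HMMR, a spindle protein, stood at 12.04, 12.27 and 12.11 with givinostat, against 11.38, 11.50 and 11.59 in control (difference 0.65 ± 0.11, adjusted p = 0.0325 with the block). Both rose, 3.7% of the 54 tested G2/M genes, against 1.35% of all genes, and none of the 54 fell. A second SMC4 probe differed by 0.49 ± 0.29, with an unadjusted p of 0.136 with the block. The second HMMR probe differed by 0.50 ± 0.19, with an unadjusted p of 0.0148 with the block. The list's median was 0.13, with 39 above 0. Within all 3 letters 24 of the 54 were higher with givinostat, against 22.7% of all genes. None of 47 genes of G1/S and DNA replication passed (median 0.00), nor any of 10 tested BCL2 family genes, where MCL1 differed by -0.14 ± 0.31 and BAD by -0.54 ± 0.16. FAS was the only 1 of 16 CDK inhibitors and p53 targets to pass (6.25%, against 0.861% of all genes that fell). None of 22 antigen presentation genes passed, HLA-B being the nearest at 0.30 ± 0.13.

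Genes of kinase signalling passed in both directions. PRKACB, a catalytic subunit of protein kinase A, rose by 0.94 ± 0.27 and PRKAR1B, a regulatory subunit, fell by 0.97 ± 0.45 on the log2 scale (adjusted p = 0.0248 and 0.0345 with the block, and 0.0845 for PRKAR1B on 12 arrays). IRAG2, an ER membrane protein of lymphoid cells, stood at 10.87, 10.81 and 10.72 with givinostat, against 9.89, 9.95 and 10.14 in control, and passed in both fits (difference 0.80 ± 0.12, adjusted p = 0.0413 without the block). With PRKCH these made 2 rises and 2 falls among 28 tested genes of protein kinase C, cAMP and calcium signalling, 7.14% each way. Of all genes, 1.35% rose and 0.861% fell. PHLDA1, an immediate target of ERK, rose by 0.70 ± 0.21 (adjusted p = 0.0345 with the block). The AP-1 and ERK feedback list thus had 2 rises, ETV5 and PHLDA1, and 1 fall, FOSL1, among 16 (12.5% and 6.25%). SNAP25, a synaptic vesicle fusion protein, and DPYSL3, a microtubule regulator of axons, rose by 0.79 ± 0.25 and 0.77 ± 0.24 (adjusted p = 0.0246 and 0.0234 with the block). They were 2 of 14 tested genes that the repressor REST silences outside neurons, while ENO2, a further member, fell (14.3% and 7.14%). No gene passed among 21 of DNA methylation and Polycomb, where BMI1 differed by 0.54 ± 0.19.

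Givinostat was also added to sorafenib, which gives a contrast of givinostat with a second drug present, on 6 other arrays. In combination against sorafenib alone, 14 genes were higher and 12 lower in the unblocked fit, 0.18% and 0.154% of the genes tested. Of the 172 genes that rose or fell with givinostat alone, 156 (90.7%) differed in the same direction, 96 of the 105 and 60 of the 67, against 62.9% of all genes. For 89 of the 172 (51.7%) the direction was the same with an unadjusted p under 0.05, against 12.2% of all genes. The 14 genes that passed in both comparisons made up 8.14% of the 172 and 53.8% of the 26. The genes that had risen had a median difference of 0.52 there, those that had fallen -0.55 and all genes -0.02. Both comparisons came from 1 normalization and the same line, and the unblocked fit takes its spread from all 12 arrays.

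RAPH1 stood at 9.68, 10.28 and 10.22 in the combination, against 8.31, 8.51 and 7.88 with sorafenib, a difference of 1.82 ± 0.22 (adjusted p = 0.0141). ITGB1 stood at 12.28, 12.48 and 12.59 in the combination, against 11.36, 11.55 and 11.37 with sorafenib (difference 1.02 ± 0.13, adjusted p = 0.0141). The groups did not overlap for either gene. ATF5 stood at 10.23, 9.04 and 8.94 in the combination, against 11.61, 11.14 and 11.29 with sorafenib (difference -1.94 ± 0.34, adjusted p = 0.0403). ELAPOR2 (1.26 ± 0.21) and EFR3B (1.00 ± 0.15) passed as well. So did COBLL1 and ETV5, each detected on 1 sorafenib array, and ANKRD22, detected on none, at least 6.28-fold, 2.96-fold and 2.37-fold higher. S100P, detected on no combination array, was at least 2.42-fold lower and passed. LTA differed by -1.75 ± 0.42 and did not pass (adjusted p = 0.11), although its 3 combination values, 9.83, 8.40 and 8.74, lay below the 3 sorafenib values, 11.02, 10.30 and 10.92.

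Other genes of the response differed little, or the other way, where givinostat was added to sorafenib. SYVN1 stood at 8.67, 8.75 and 8.69 in the combination, against 8.82, 8.99 and 8.79 with sorafenib, a difference of -0.16 ± 0.16, and was the only 1 of the 16 genes of the unblocked fit whose direction differed. IRAG2 differed by 0.04 ± 0.12, SMC4 by -0.20 ± 0.24 and ENO2 by 0.05 ± 0.29, none of which passed. PPP2R5B differed by 0.48 ± 0.18, opposite to its fall with givinostat alone. Against control, sorafenib alone differed in the same direction as givinostat alone for each of these genes. It did so by 0.74 ± 0.16 for SYVN1, 1.24 ± 0.12 for IRAG2 and -1.22 ± 0.29 for ENO2, which passed without the block. SMC4 (0.37 ± 0.24) and PPP2R5B (-0.62 ± 0.18) did not pass there. The part of this baseline shift was not tested. The difference between both effects of givinostat, tested as an interaction in the fit of 12 arrays, passed for no gene, with 440 of all 7779 genes at an unadjusted p under 0.05. Among the 172 the lowest adjusted p of limma's interaction contrast was 0.753, and 30 had an unadjusted p under 0.05. PPP2R5B, with an interaction of 1.44 ± 0.25, SYVN1 (-1.09 ± 0.22), IRAG2 (-0.76 ± 0.17) and STAT4 (-0.78 ± 0.24) were among these. STAT4 was also 1.17 ± 0.17 higher with sorafenib alone than in control. The interaction subtracts the very difference by which the 172 were chosen. That choice thus favours interactions opposite in sign to the response, as in these genes, and the 30 are a description and not a test.

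**Figure D5:**
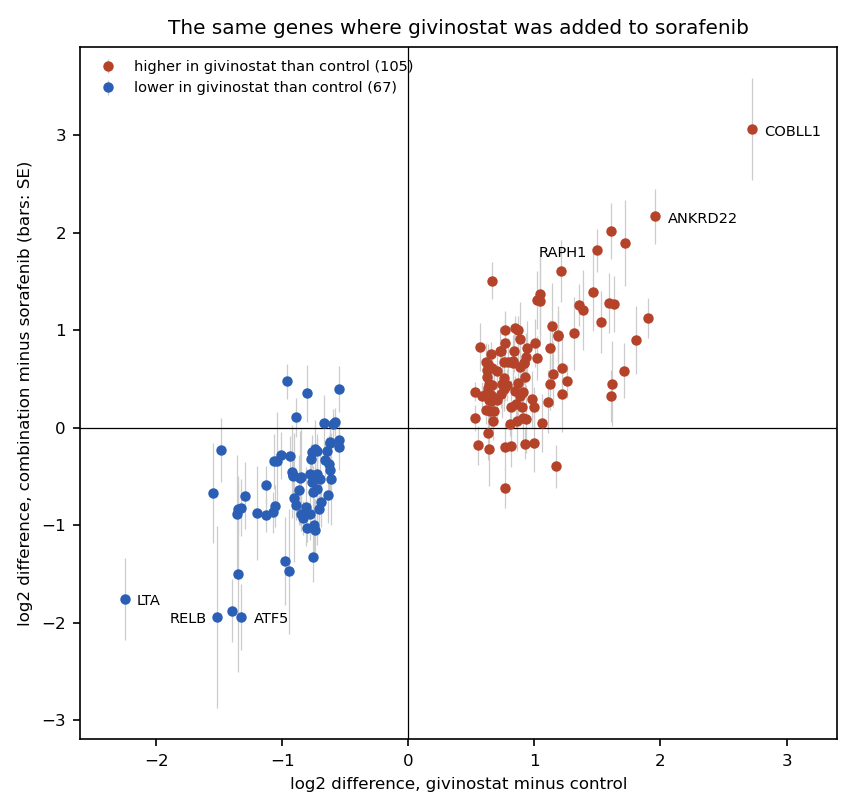
Log2 difference, combination minus sorafenib, with its SE (vertical axis) against log2 difference, givinostat minus control (horizontal axis), for the 172 genes that passed with the letter as block, 105 higher in red and 67 lower in blue. Of the 172 points 156 lie in the upper right and the lower left, where both differences have the same sign.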

How the data were processed

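The members and the gene lists were chosen with earlier results of these data known. Raw probe intensities of 12 Illumina arrays were deposited without normalization, and BeadStudio is named per the submitters' processing notes. A detection score, a fraction from 0 to 1, was deposited beside each intensity. Per the file headers it is a p-value, but it rises with intensity on all 12 arrays, so 1 minus the score was taken as the detection p. The authors also deposited quantile-normalized linear intensities, used as an alternative.

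The neqc function (limma 3.58.1 in R 4.3.3, offset 16) corrected the background, equalised the arrays by quantiles and gave log2 values. Probes were named through the platform annotation: 28098 had 1 gene symbol, 13 several and 20692 none listed, and the brightest probe stood for a gene. A bound ("at least N-fold") sets undetected values at the array's lowest detected signal. It holds for this processing alone and does not include the spread between arrays. limma was fitted to all 12 arrays without a block (8 residual degrees of freedom), and with the letter as block to 9 arrays (4 residual degrees of freedom), with Benjamini-Hochberg adjustment over the 7779 genes. SEs are those of the unblocked fit. The letters come from the sample titles. Among control, givinostat and sorafenib, arrays of the same letter had deviations from their group means that correlated across genes at 0.172 to 0.415. The scripts were tested on simulated data.

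Genes were named by rule: up to 10 each way by size among those passing without the block, the 15 largest rises and falls with the block whose groups did not overlap, up to 4 passing members of each list or else the member with the lowest p, and a short set of HDAC, growth and Hodgkin genes. ITGB7, STAT5B, JAK1, STAT3, RELA, NFKB2, TRAF1 and NFKBIA were added after their values were seen. Background correction, normalization, detection limit, probe choice, block and left-out arrays were varied.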

Additional observations from a re-analysis of the deposited data

Results flagged for a closer look

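Of the 1620 detected probes with no single gene symbol, which the comparisons by gene leave out, 20 passed between givinostat and control in a fit over all 11246 detected probes with the letter as block, 13 of them higher and 7 lower. They were flagged because they lie outside the named genes. The share was 1.23%, against 1.40% of the named probes, and without the block none of the 1620 passed.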

How the results depend on the processing

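The count of 16 genes without the block (13 higher, 3 lower) was 76 without background correction (48 higher, 28 lower) and 76 with the authors' deposited normalized values (48 higher, 28 lower). It was 16 with median scaling, 6 of them among the original 16, 30 with normexp on the intensities alone (22 higher, 8 lower), 25 with cyclic loess, 8 with the median of a gene's probes, 1 with no filter on dim probes, 1 on the 9 arrays without the combination, 0 on 6 arrays, and 7 with probes detected in any of the 4 groups, an alternative chosen after seeing the data. With the replicate block it was 194 on 12 arrays, 172 on 9 and 0 on 6. Leaving out 1 array gave 0 to 23. The 172 genes of the blocked fit became 606 without background correction, 615 with the deposited normalized values, 320 with normexp alone, 290 at a detection p under 0.01, 100 with median scaling and 12 with no filter on dim probes, all chosen after seeing the data. Leaving out 1 array gave 0 to 158 with the block. The cause of these changes was not tested. Of the 172 genes, 156 kept their direction in combination against sorafenib, 139 with median scaling and 151 to 160 without 1 array. Genes that did not pass changed sign: BLK (-0.04) was 0.076 and HDAC2 (-0.02) was 0.10 with median scaling. Without 1 array, BLK lay between -0.23 and 0.16, HDAC2 between -0.27 and 0.21, CDKN1A between -0.16 and 0.22 and MCL1 between -0.35 and 0.062. With 3 arrays a group, and dim genes near background, small differences could not be resolved.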
